A study of Mus musculus with 9 samples.

Results

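Potassium channel genes were followed in the mouse retina at d2 after laser treatment. Rows of the count table were taken when their symbol began like a potassium channel gene (Kcn, letters and a number), which held for 98 rows. Kcnj10, Kcnj8 and 4 opposite-strand transcripts were left out by name, and of the 92 genes left, 73 had 10 or more counts in at least 3 of the 9 samples. These 73 of 48587 genes in the table are the members described here. They comprise 72 genes of channel pores or accessory subunits and Kcnq1ot1, a long non-coding RNA from the opposite strand of Kcnq1.

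Each sample was a pool of 6 retinas from 6 C57BL/6J mice at an age of 12 weeks, and there were 3 pools in each of 3 groups, so that n counts pools. In RVO eyes all large veins were occluded by laser after eosin Y (200 mg/kg), a dye that enhances the laser effect, whereas in control eyes the same laser scheme was aimed between the large vessels. Both were taken at d2, and each mouse gave 1 RVO and 1 control eye, so the control retinas carried laser lesions and eosin too. Untreated eyes received no laser. Total counts were 12377572 to 15245869 in untreated, 18897218 to 23419497 in control and 21022997 to 28993921 in RVO pools, which makes low counts least certain in untreated pools. As whole retinas were pooled, fewer cells of a type and less RNA per cell cannot be told apart in any value below.

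Potassium channels let potassium leave the cell and so set the resting potential and end electrical signals. Voltage-gated (Kv) pores open on depolarisation, inward rectifiers (Kir) hold the resting potential and include the G protein-gated channels, 2-pore domain channels carry leak currents, and calcium- or sodium-activated channels couple potassium flow to other ions. Silent Kv subunits make no channel of their own but join Kv2 pores. In photoreceptors, the silent subunit Kcnv2 (Kv8.2) is part of the channel that carries the potassium current of the inner segment and shapes the light response.

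**Figure D1:**
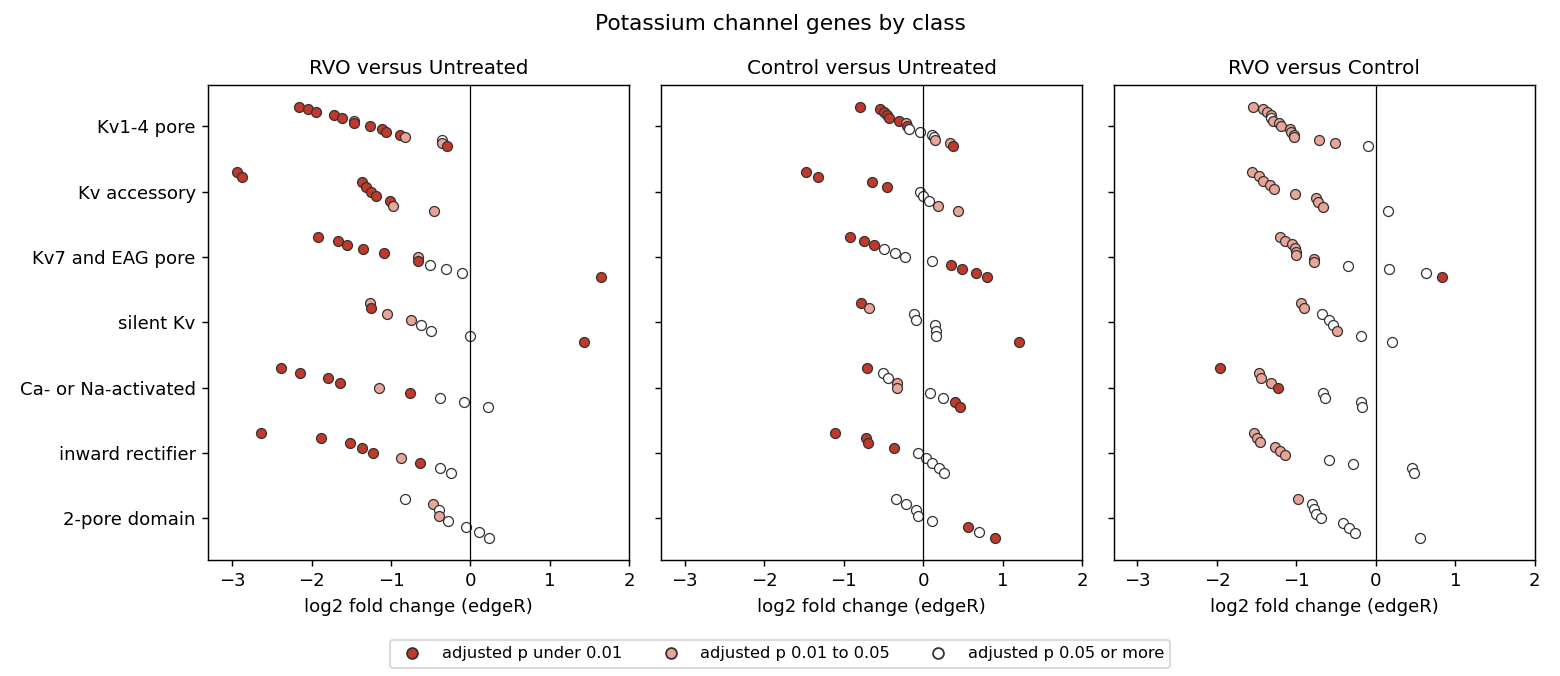
Log2 fold changes (x axis) of the potassium channel genes tested in 3 comparisons (panels), with 1 point for each gene and the genes arranged by channel class (y axis), dark points for an adjusted p under 0.01, pale points for 0.01 to 0.05 and open points for the rest. Most points lie left of 0 in the comparisons of RVO with untreated and with control eyes, with Kcng4 (1.42) on the right among the silent subunits in the first panel, while control against untreated eyes has points on both sides of 0. Kcnq1 is not drawn in the first panel, since its untreated pools held 3 or fewer counts.

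In RVO eyes most potassium channel genes were lower than in untreated eyes. Of 70 members tested by edgeR's quasi-likelihood test, 36 were lower at an adjusted p under 0.01, which is 51.4% beside 24.6% of all 16380 genes tested, and 2 were higher (2.86%), beside 27.4% of all genes. Their median log2 fold change was -0.99, against 0.01 over all genes. RVO and untreated pools did not overlap for 50 of the 70 (71.4%), close to the 73.4% over all genes. When 1 pool was left out, the count of lower members ranged from 22 (without untreated pool 2) to 52 (without RVO pool 2), and it was 23 without RVO pool 3 or without untreated pool 3.

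Control laser treatment moved members both ways. Compared with untreated eyes, 10 of 69 members tested were higher (14.5%, all genes 27.2%) and 20 were lower (29%, all genes 25.2%), with a median log2 fold change of -0.09 beside 0.01 over all genes. The pools did not overlap for 42 members (60.9%, all genes 70%). These counts changed with the processing: when trends with GC content and gene length were removed, 3 were higher and 19 lower, of which 7 were among the 20, and with library size alone as the scaling 18 were higher and 13 lower, as the median of all genes then rose by 0.17. Both comparisons use the same untreated pools.

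RVO and control eyes differed less clearly. At an adjusted p under 0.01, 1 of 73 members was higher (1.37%, all genes 2.7%) and Kcnmb2 and Kcnt1 were lower (2.74%, all genes 0.634%). At an adjusted p under 0.05, 45 members were lower (61.6%, all genes 17.1%) and 1 was higher (all genes 17.5%). The median log2 fold change was -0.95, beside 0.02 over all genes, 65 of 73 values were negative, and pools did not overlap for 54 members (74%, all genes 52.5%). The 2 falls and the rise at 0.01 lie next to the threshold (adjusted p = 0.0099 for Kcnt1). Both counts fell to 0 with DESeq2 size factors in edgeR or with the GC and length trends removed. Other settings gave more lower members at 0.01. The count was 41 of 73 in the DESeq2 Wald test (all genes 2167 of 16874) and 42 in 1 fit of all 9 samples (2021 of 17112). It was 41 without a filter on low counts (1740 of 29742), and 1 member was higher in each.

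RVO pool 2 stood between the control pools and the other RVO pools for most members. Among the 65 members with a negative fold change between RVO and control, this pool had the highest RVO level for 61, beside 71.5% of 7169 genes with a lower mean in RVO than in control eyes and a mean of at least 1 CPM (counts scaled to a total of 1e+06). Without RVO pool 2, 50 members were lower in RVO than in control eyes at an adjusted p under 0.01, whereas without any other RVO or control pool none was (46 to 49 at an unadjusted p under 0.05). In the summed level of the 72 channel and accessory genes, RVO pools held 2699, 3472 and 2709 CPM, control pools 4305, 3916 and 4354, and untreated pools 4866, 5145 and 4922. All RVO pools thus lay below all control pools, and these below all untreated pools.

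**Figure D2:**
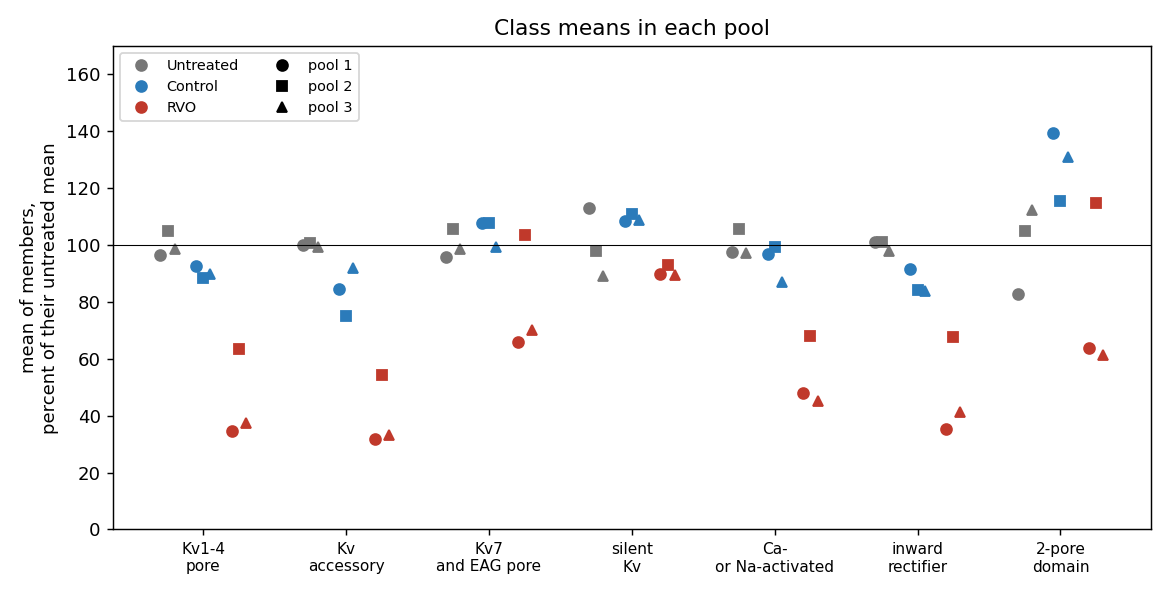
Mean level of the members of each channel class in each pool (y axis, percent of each gene's untreated mean, averaged over the genes with an untreated mean of at least 1 CPM and without Kcnq1ot1), by class (x axis), with grey, blue and red for untreated, control and RVO eyes and a symbol for each pool. In the Kv1-4 pore, Kv accessory, calcium- or sodium-activated and inward rectifier classes the RVO pools (31.8% to 68.1%) lie below all other pools, with RVO pool 2 (square) the highest of them, while in silent Kv subunits they lie at 89.4% to 93%, a mean that includes Kcng4, which rose, whereas the summed level of this class was 806 to 867 CPM in untreated and 395 to 410 CPM in RVO pools.

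Silent subunits included an abundant member that fell and another that rose. Levels of different genes are compared as CPM per kilobase of exon. In untreated eyes Kcnv2 had the highest mean level with 158 ± 6.24 (SD, n = 3). Further abundant members were Kcnj14 (88 ± 3.58), Kcnab2 (57.5 ± 0.587), Kcne2 (57.1 ± 8.47), Kcnip4 (27.1 ± 2.51) and Kcna5 (26.9 ± 0.51). Kcnab2 and Kcne2, and Kcnip4 and Kcna5, were closer to each other than their SD. In RVO eyes Kcnv2 was at 64.8 ± 1.81, Kcnj14 at 55.2 ± 6.76, Kcnab2 at 40.9 ± 11.1 and Kcng4 at 16.8 ± 1.27, while Kcne2 and Kcnip4 had left the first 10 places.

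Kcnv2 (chr19:27322588-27337179, GRCm38) was measured at 335, 337 and 320.4 CPM in RVO, 505, 402 and 486 in control, and 823, 827 and 770.1 in untreated pools. The 3 groups did not overlap. It fell in RVO (log2 fold change -1.25 ± 0.06 SE, adjusted p = 5e-06) and in control eyes (-0.78 ± 0.08, adjusted p = 2.5e-06) against untreated eyes, and the RVO to control difference was -0.49 ± 0.09 (adjusted p = 0.013).

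Kcng4 (Kv6.4, a silent subunit that joins Kv2 pores) was at 67, 58.3 and 66.3 CPM in RVO, 52.9, 61.8 and 52.3 in control, and 24.2, 24.9 and 23.8 in untreated pools. All 6 laser-treated pools lay above all untreated pools, and RVO and control pools overlapped. It rose 2.68-fold in RVO (1.42 ± 0.09, adjusted p = 1e-05) and 2.32-fold in control eyes (1.21 ± 0.08, adjusted p = 2.1e-07), and both rises passed the threshold in every alternative processing tried. RVO and control eyes differed by 0.20 ± 0.09 (adjusted p = 0.13).

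The ratio of both silent subunits within a pool does not depend on how whole pools are scaled, but GC and length trends do not cancel in it. With these trends removed, the rise of Kcng4 was 0.95 in RVO and 0.77 in control eyes. Per exon length, Kcng4 was present at 0.268, 0.232 and 0.278 of the Kcnv2 level in RVO, 0.141, 0.206 and 0.144 in control, and 0.0395, 0.0404 and 0.0415 in untreated pools. The 3 groups did not overlap, and each pair of groups reached p = 0.1 in a two-sided exact permutation test, the smallest that 3 against 3 pools can give. Kcnv2 exceeded Kcng4 in every pool. As Kcng4 rose and Kcnv2 fell in these same pools, the order of the ratios follows from those changes and adds no support to them.

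**Figure D3:**
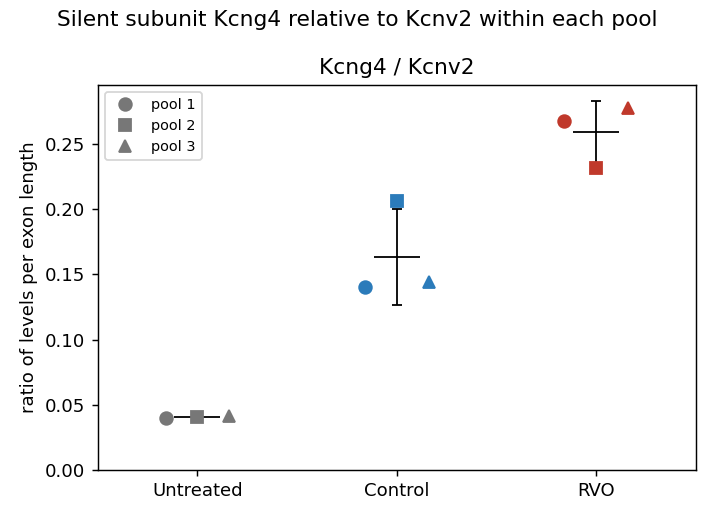
Level of Kcng4 per exon length divided by that of Kcnv2 in the same pool (y axis) in untreated, control and RVO eyes (x axis), with a symbol for each pool and bars for mean and SD (n = 3). The ratio was 0.0405 ± 0.000954 in untreated, 0.164 ± 0.0369 in control and 0.259 ± 0.0243 in RVO eyes, with RVO pool 2 and control pool 2 nearest to each other.

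Other silent subunits were rare. Of the 8 tested, Kcnv2 fell and Kcng4 rose in RVO against untreated eyes, and 7 of the 8 values were negative (median -0.69). Kcnf1, at 3.47, 4.67 and 3.78 CPM in RVO and 3.18, 4.06 and 4.93 in untreated pools, had a difference of -0.01 ± 0.22, and Kcns2, at 2.33, 4.88 and 2.9 against 6.63, 6.09 and 4.64, one of -0.75 ± 0.29 (adjusted p = 0.049). Beside Kcnv2, 8 of 10 rod markers and 6 of 8 cone markers were lower in RVO than in untreated eyes (all genes 24.6%), and 1 rod marker was higher (all genes 27.4%). Summed rod markers ran from 92819 to 95365 CPM in untreated, 61936 to 75722 in control and 51150 to 55485 in RVO pools, and summed cone markers from 1597 to 1681, 1010 to 1293 and 535 to 815. Their part in the result was not tested. Kcnh1 (EAG1), also found in photoreceptors, was at 9.68, 16.8 and 9.32 CPM in RVO, 19.6, 22.8 and 19.3 in control, and 12.7, 13.4 and 13.1 in untreated pools, and it rose in control eyes (0.67 ± 0.10, adjusted p = 7.1e-05).

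The promoter of Kcng4, the silent subunit that rose, is shown beside that of Kcnj3, the inward rectifier that fell most, to show what the start sites of genes with opposite changes hold. The windows run from 250 bases before to 50 bases after the gene start (RefSeq, GRCm38.p6), with Kcng4 at chr8:119635631-119635930 on the minus strand and Kcnj3 at chr2:55435720-55436019 on the plus strand. Capitals mark the letters TAATCC, bound by the photoreceptor factor CRX, in Kcng4 and a GC box (GGGCGG) in Kcnj3.
Kcng4: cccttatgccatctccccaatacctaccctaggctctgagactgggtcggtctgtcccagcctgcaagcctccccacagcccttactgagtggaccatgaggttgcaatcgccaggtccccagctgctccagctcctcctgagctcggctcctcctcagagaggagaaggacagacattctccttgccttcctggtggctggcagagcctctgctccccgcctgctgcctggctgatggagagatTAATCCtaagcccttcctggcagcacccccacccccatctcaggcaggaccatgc
Kcnj3: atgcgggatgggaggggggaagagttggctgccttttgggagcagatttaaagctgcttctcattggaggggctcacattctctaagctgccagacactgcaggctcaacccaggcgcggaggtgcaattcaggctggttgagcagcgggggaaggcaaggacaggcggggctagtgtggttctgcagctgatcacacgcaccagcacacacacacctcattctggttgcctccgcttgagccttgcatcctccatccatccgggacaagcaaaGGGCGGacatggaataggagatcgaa

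Of the members, 51 had such a window. On either strand, TAATCC was in 2 of them (3.92%, 7.15% of all 27025 windows), the AP-1 letters TGACTCA in 1 (1.96%, all 5.17%), the hypoxia response core ACGTG in 8 (15.7%, all 19.6%), the cAMP response letters TGACGTCA in none (all 1.85%), and GGGCGG in 29 (56.9%, all 35.9%). The windows of members had a median GC content of 61.3%, against 52.7% over all. GGGCGG was in 17 of 27 members that were lower in RVO than in untreated eyes (63%) and in 12 of the other 24 (50%). These are matches of letters and not binding sites.

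Pores of the Kv1, Kv3 and Kv4 families, which repolarise axons and fast firing neurons, were lower in RVO eyes. Counting all Kv1 to Kv4 pores, 11 of 15 were lower than in untreated eyes at an adjusted p under 0.01 (median -1.27, all genes 24.6% lower). At an adjusted p under 0.05, 13 of 15 were lower than in control eyes (median -1.19, all genes 17.1% lower). Kcnb2 (Kv2.2) was at 2.8, 7.81 and 4.09 CPM in RVO, 13.5, 12.6 and 11.6 in control, and 19.7, 25.6 and 21.2 in untreated pools. The groups did not overlap, and the log2 fold changes were -2.16 ± 0.33 in RVO (adjusted p = 0.00064) and -0.80 ± 0.11 in control eyes (adjusted p = 3.5e-05), but they were -1.17 (adjusted p = 0.0074) and -0.08 (adjusted p = 0.51) with the GC and length trends removed.

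Kcnd2 (Kv4.2), which carries the transient A-type current of dendrites, was at 2.26, 6.67 and 2.11 CPM in RVO, 11.4, 9.85 and 10.9 in control, and 18.1, 15.4 and 12.8 in untreated pools. RVO pools lay below all others, with pool 2 the highest of them. It fell in RVO against untreated eyes (-2.04 ± 0.41, adjusted p = 0.0027), with an adjusted p of 0.011 to 0.015 without RVO pool 3 or without untreated pool 1 or 2, and at an adjusted p under 0.05 it was lower in RVO than in control eyes (-1.55 ± 0.41, adjusted p = 0.026). Kcnc2 (Kv3.2), a pore of fast-spiking neurons, was at 10.2, 28 and 13.5 CPM in RVO, 47.4, 43.7 and 46.2 in control, and 64.1, 68.8 and 69.4 in untreated pools, with log2 fold changes of -1.94 ± 0.32 in RVO (adjusted p = 0.00097) and -0.54 ± 0.06 in control eyes (adjusted p = 6.8e-06).

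More abundant pores also fell. Kcnd3 (Kv4.3) was at 31.8, 63.3 and 40.1 CPM in RVO and 111, 117 and 104 in untreated pools (-1.27 ± 0.22, adjusted p = 0.0012), and Kcna5 (Kv1.5), also known from vascular smooth muscle, at 23.9, 51.5 and 29.6 against 75.5, 77.3 and 78.4 (-1.11 ± 0.24, adjusted p = 0.0041). In control eyes Kcna5 was at 73.3, 75.6 and 72.5 CPM, a difference of -0.04 ± 0.05 from untreated eyes (adjusted p = 0.48). Kcnc4 (Kv3.4) had 27.9, 26 and 26.1 CPM in control and 19.3, 22.1 and 20.8 in untreated pools and was higher in control eyes (0.38 ± 0.08, adjusted p = 0.0014), but the value turned to -0.16 with the GC and length trends removed.

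Accessory subunits held the 2 largest falls between RVO and untreated eyes among the members tested. Of 9 tested, 7 were lower in RVO than in untreated eyes (median -1.25, all genes 24.6% lower). At an adjusted p under 0.05, 9 of 10 were lower in RVO than in control eyes (all genes 17.1%). Kcnip4, a calcium sensor that binds Kv4 pores, was at 7.96, 19.8 and 10.1 CPM in RVO, 35.8, 34.1 and 34.9 in control, and 105, 101 and 88 in untreated pools. The 3 groups did not overlap, with control pools close to each other and RVO pool 2 nearest to them. The level was 7.66-fold lower in RVO (-2.94 ± 0.30, adjusted p = 9.7e-05) and 2.77-fold lower in control eyes (-1.47 ± 0.07, adjusted p = 2e-08) than in untreated eyes, and RVO lay below control by -1.47 ± 0.30 (adjusted p = 0.014).

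Kcne2, a single-span subunit that alters several Kv pores, was at 10.2, 20.8 and 9.45 CPM in RVO, 42.3, 31.2 and 45.4 in control, and 116, 101 and 86.1 in untreated pools. The groups again stood apart. It fell by 2.88 on the log2 scale in RVO (SE 0.29, adjusted p = 8.8e-05) and by 1.32 in control eyes (SE 0.12, adjusted p = 1.7e-06) against untreated eyes, and RVO lay below control by -1.56 ± 0.30 (adjusted p = 0.013).

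Kcnab2, the cytoplasmic Kv β-subunit with the highest level, was at 199, 299.6 and 186 CPM in RVO, 372, 326 and 385 in control, and 318, 324 and 321 in untreated pools. All RVO pools lay below and all control pools above the untreated pools, with differences of -0.46 ± 0.16 (adjusted p = 0.033) and 0.19 ± 0.06 (adjusted p = 0.02) that did not pass 0.01. Among further calcium sensors of Kv4 pores, Kcnip1 fell in control eyes (-0.64 ± 0.06, adjusted p = 2.7e-06), while Kcnip2 was at 12.7, 11.2 and 13.9 CPM in control and 7.81, 9.46 and 10.9 in untreated pools (0.43 ± 0.13, adjusted p = 0.011).

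The Kv7 and EAG families open slowly and limit repeated firing. Of 12 genes tested, counting the antisense Kcnq1ot1, 6 were lower in RVO than in untreated eyes (median -0.66, all genes 24.6% lower), with Kcnq1ot1 among these 6. At an adjusted p under 0.05, 8 were lower than in control eyes (all genes 17.1%). In control against untreated eyes, 4 of 11 were higher and 3 lower, again with Kcnq1ot1 among the lower (all genes 27.2% and 25.2%). Kcnq3, a subunit of the neuronal M-channel, was at 5.57, 10.4 and 5.8 CPM in RVO, 15.9, 15 and 14.3 in control, and 22.1, 25.1 and 23 in untreated pools, and it fell in both laser groups (-1.66 ± 0.23, adjusted p = 0.00042, and -0.62 ± 0.09, adjusted p = 5.3e-05).

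The ERG channels Kcnh2 and Kcnh7 carry a repolarising current in heart and neurons. Kcnh7 was at 7.2, 11.6 and 9.63 CPM in RVO, 18.7, 18.8 and 19 in control, and 37.3, 37.4 and 34.4 in untreated pools, and fell in RVO (-1.92 ± 0.16, adjusted p = 4.2e-05) and control eyes (-0.93 ± 0.08, adjusted p = 6e-07). With the GC and length trends removed these were -0.94 and -0.23, and the control difference no longer passed (adjusted p = 0.017). Kcnh2 was at 33.5, 64 and 37.1 CPM in RVO, 93, 85 and 95.3 in control, and 68.7, 71.3 and 77.1 in untreated pools, so control pools were highest and RVO pools lowest. Its rise in control eyes (0.35 ± 0.06, adjusted p = 0.00031) turned to -0.28 with the GC and length trends removed.

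Kcnq1, the pore of the cardiac slow current, had only 3, 3 and 2 counts in untreated pools, against 17, 14 and 23 in RVO and 9, 7 and 14 in control pools. Set against a floor of 3 counts in each untreated library, the mean of its RVO pools was at least 2.98-fold the untreated level. The mean of its control pools was at least 1.87-fold that level, and single pools can lie below these values. Only laser-treated pools reached the 10 counts of the member rule, so the choice of members itself favoured this excess. The edgeR test of Kcnq1 between RVO and untreated eyes gave 1.73 (adjusted p = 0.011), which did not pass 0.01. The antisense Kcnq1ot1 was at 9.08, 10.1 and 9.94 CPM in RVO, 10.8, 12.5 and 14.1 in control, and 19.1, 23.5 and 20.6 in untreated pools. It fell in RVO (-1.09 ± 0.12, adjusted p = 0.00013) and in control eyes (-0.74 ± 0.12, adjusted p = 0.0001), the latter turning to 0.26 with the GC and length trends removed. The libraries were stranded, but whether the counting used the strand is not given in the sources used here, and 3% of the exon bases of Kcnq1 overlap Kcnq1ot1.

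**Figure D4:**
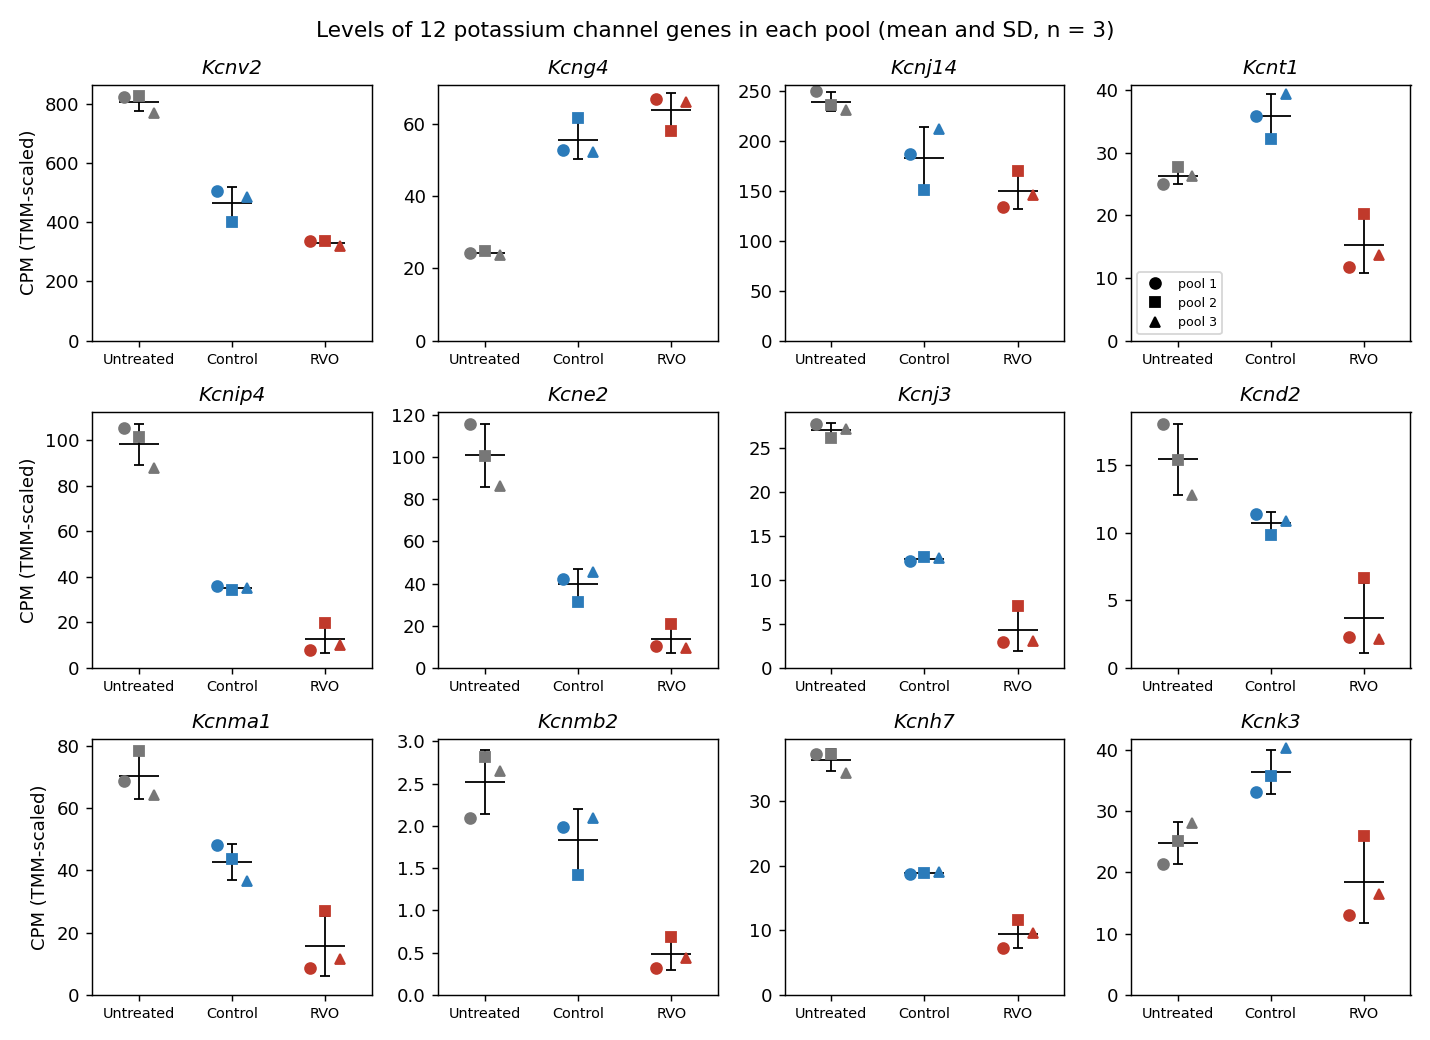
Levels (y axes, TMM-scaled CPM from 0) of 12 potassium channel genes in untreated (grey), control (blue) and RVO eyes (red), with a symbol for each pool and bars for mean and SD (n = 3). Kcng4 has its highest mean in RVO eyes, Kcnt1 and Kcnk3 are highest in control eyes, and Kcnip4, Kcne2, Kcnj3, Kcnd2, Kcnma1, Kcnmb2 and Kcnh7 are lowest in RVO eyes with RVO pool 2 (square) above the other RVO pools.

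Calcium- and sodium-activated channels were lower in RVO than in untreated eyes for 5 of 9 members (all genes 24.6%). The large-conductance (BK) pore Kcnma1, which shortens calcium signals at synapses, was at 8.76, 26.9 and 11.5 CPM in RVO, 48, 43.6 and 36.6 in control, and 68.7, 78.5 and 64.1 in untreated pools. The groups did not overlap, and RVO pool 2 was more than 2 times as high as the other RVO pools. It fell in RVO (-2.14 ± 0.36, adjusted p = 0.0011) and in control eyes (-0.70 ± 0.10, adjusted p = 4e-05), which became -1.52 (adjusted p = 0.0051) and -0.27 (adjusted p = 0.019) with the GC and length trends removed.

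Of its β-subunits, Kcnmb2 had the largest difference between RVO and control eyes among all members tested. It was at 0.319, 0.679 and 0.44 CPM in RVO, 1.99, 1.41 and 2.09 in control, and 2.09, 2.81 and 2.64 in untreated pools. The RVO pools lay below the other 6, while control and untreated pools touched at 2.09. The log2 fold change was -1.96 ± 0.31 against control (adjusted p = 0.01) and -2.38 ± 0.31 against untreated eyes (adjusted p = 0.0003). Kcnmb4, the neuronal β-subunit, was at 0.988, 2.8 and 1.28 CPM in RVO and 5.63, 6.02 and 6.07 in untreated pools (-1.79 ± 0.36, adjusted p = 0.0025), though 20.8% of its exon bases overlap an opposite-strand transcript.

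Kcnt1 (Slack), a sodium-activated pore, was the 1 member that passed the test in opposite directions. It was at 11.7, 20.2 and 13.7 CPM in RVO, 35.9, 32.1 and 39.3 in control, and 25, 27.7 and 26.3 in untreated pools. Control pools were highest, untreated pools between and RVO pools lowest, without overlap. It rose in control eyes (0.46 ± 0.09, adjusted p = 0.00047) and fell in RVO eyes (-0.77 ± 0.19, adjusted p = 0.0072) against untreated eyes, and RVO was lower than control (-1.24 ± 0.19, adjusted p = 0.0099). The rise was 0.22 (adjusted p = 0.039) with the GC and length trends removed. The small-conductance channel Kcnn1 was at 17.5, 17.6 and 17.9 CPM in RVO, 20.2, 20.8 and 19.7 in control, and 13.5, 17.1 and 15.7 in untreated pools, higher in control eyes (0.40 ± 0.10, adjusted p = 0.0028) but at -0.03 with the GC and length trends removed. Kcnu1, the pore of sperm, was low throughout (1.41 to 3.18 CPM).

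Inward rectifiers fell for 6 of 9 members tested in RVO against untreated eyes (all genes 24.6%). At an adjusted p under 0.05, 6 of 10 were lower than in control eyes (all genes 17.1%). Kcnj3 (GIRK1), a subunit of the G protein-gated channels of inhibitory transmission, was at 2.9, 7.01 and 2.99 CPM in RVO, 12.1, 12.6 and 12.5 in control, and 27.7, 26.2 and 27.1 in untreated pools. The 3 groups were clearly separate. It was 6.19-fold lower in RVO (-2.63 ± 0.31, adjusted p = 0.00018) and 2.15-fold lower in control eyes (-1.10 ± 0.08, adjusted p = 3.4e-07), and 31.1% of its exon bases overlap an opposite-strand transcript.

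The other G protein-gated subunits passed no threshold in control eyes, and the difference from Kcnj3 was not tested. Kcnj9 (GIRK3) was at 22.8, 60.4 and 27.5 CPM in RVO, 104, 95.4 and 111 in control, and 93.9, 96.6 and 99.6 in untreated pools, so that control and untreated pools overlapped (0.12 ± 0.06, adjusted p = 0.11) and RVO pools lay below control pools (-1.49 ± 0.33, adjusted p = 0.016). Kcnj5 (GIRK4) and Kcnj6 (GIRK2) had control differences of 0.03 ± 0.08 and -0.07 ± 0.21 and RVO differences of -1.23 ± 0.32 (adjusted p = 0.0095) and -1.51 ± 0.40 (adjusted p = 0.0098) from untreated eyes.

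Among the classical inward rectifiers, Kcnj14 (Kir2.4) had the highest level, with 134, 170.1 and 146 CPM in RVO, 187, 150.4 and 212 in control, and 249.9, 236 and 231 in untreated pools. RVO and control pools overlapped, and both groups were lower than untreated eyes (-0.64 ± 0.09, adjusted p = 0.00051, and -0.37 ± 0.09, adjusted p = 0.0044). Kcnj2 (Kir2.1), of neurons, vessels and microglia, was at 2.39, 6.75 and 4.05 CPM in RVO, 10.4, 9.65 and 10 in control, and 16.6, 17.3 and 15.4 in untreated pools, and fell in RVO (-1.88 ± 0.32, adjusted p = 0.0011) and control eyes (-0.69 ± 0.10, adjusted p = 4.1e-05), the latter to -0.25 with the GC and length trends removed.

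Kcnj13 (Kir7.1), the channel of the retinal pigment epithelium, was the 1 member lower in control but not in RVO eyes. It was at 4.75, 8.03 and 6.02 CPM in RVO, 5.47, 4.7 and 3.51 in control, and 8.9, 7.66 and 6.29 in untreated pools. The control pools lay below all untreated pools (-0.72 ± 0.18, adjusted p = 0.0041), although this call was lost, at an adjusted p of 0.01 to 0.024, with library size only, in 1 fit of all 9 samples, after thinning, with the GC and length trends removed, and without control pool 3 or untreated pool 1 or 2. The RVO pools overlapped both groups (-0.25 ± 0.23 against untreated, adjusted p = 0.35, and 0.46 ± 0.24 against control, adjusted p = 0.18). Opposite-strand exons of Gigyf2 overlap 49.1% of its exon bases. Of 8 markers of the pigment epithelium, 3 were lower in control (all genes 25.2%) and 1 in RVO (all genes 24.6%) than in untreated eyes. Their sum was 444 to 518 CPM in control, 346 to 643 in RVO and 507 to 554 in untreated pools. Their part in the result was not tested.

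Kcnj11 (Kir6.2), the pore of the ATP-sensitive channel, was at 5.54, 7.94 and 4.7 CPM in RVO, 9.63, 9.09 and 8.75 in control, and 7.99, 8.75 and 7.43 in untreated pools, without a difference past the threshold. Kcnj4 had 1, 3 and 2 counts in untreated pools against 31, 11 and 12 in RVO and 17, 7 and 8 in control pools. Over a floor of 3 counts per untreated library, the mean of its RVO pools was at least 2.75-fold the untreated level. The mean of its control pools was at least 2.02-fold that level, and single pools can lie below these values. Kcnj4 also reached the 10 counts of the member rule only in laser-treated pools, which favoured such an excess. Of the genes left out by name, Kcnj10 (Kir4.1 of Müller cells) was at 53.3, 122 and 86.8 CPM in RVO, 139, 192 and 143 in control, and 114, 118 and 109 in untreated pools, and Kcnj8 (Kir6.1 of pericytes) at 0.669, 2.38 and 1.23, 4.07, 4.09 and 3.93, and 2.72, 3.67 and 2.71.

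The 2-pore domain channels carry leak currents. None of 8 tested passed an adjusted p under 0.01 in edgeR between RVO and untreated eyes (all genes 24.6% lower, 27.4% higher). Their median was -0.33, and 2 were lower at 0.05. Against control eyes, 1 of 9 was lower at 0.05 (all genes 17.1%). Kcnk1 (TWIK1), the highest of them, was at 23.7, 33.2 and 27.3 CPM in RVO, 35.5, 36.4 and 34.3 in control, and 37.9, 37.4 and 37.6 in untreated pools, which gave -0.39 ± 0.12 in RVO (adjusted p = 0.02). Kcnk2 (TREK1) was at 2.8, 3.18 and 2.9 CPM in RVO and 4.27, 4.3 and 4 in untreated pools (-0.47 ± 0.17, adjusted p = 0.037).

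Kcnk3 (TASK1), an acid-sensitive leak channel, was higher in control eyes. It was at 13.1, 26 and 16.4 CPM in RVO, 33.2, 35.8 and 40.3 in control, and 21.3, 25.1 and 28.1 in untreated pools, with no overlap of control pools with either other group. The rise in control eyes (0.57 ± 0.11, adjusted p = 0.00044) was 0.05 with the GC and length trends removed, and RVO was lower than control (-0.98 ± 0.23, adjusted p = 0.019). Kcnk4 (TRAAK) was at 2.71, 1.72 and 2.26 CPM in control and 0.999, 1.09 and 1.5 in untreated pools, higher by 0.90 ± 0.27 (adjusted p = 0.01), which failed the threshold in most alternatives, and 13.1% of its exon bases overlap Catsperz on the same strand.

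Of the members, 47 had a mean of 100 or more counts over the 9 pools, and 31 of these were lower in RVO than in untreated eyes (median -1.09), against 5 of 23 tested among the 26 with fewer counts (median -0.63), where 24.6% of all genes tested were lower. Just inside the count rule were Kcnj4, Kcnk10, Kcnq1 and Kcne4, and just outside it, among others, Kcnn4 (13, 17 and 8 counts in RVO, 5, 4 and 7 in control, 1, 0 and 0 in untreated pools), Kcnj15 (9, 19 and 18, 2, 4 and 3, and 0, 0 and 0), Kcnk5 (20, 12 and 8, 3, 2 and 9, and 0, 0 and 2) and Kcnv1 (1, 4 and 2, 5, 5 and 5, and 9, 10 and 17).

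Of 16 channels of ganglion cells and the inner retina, 11 were lower in RVO than in untreated eyes (median -1.42), and 8 were lower and 1 higher in control eyes (median -0.32), beside 24.6% lower in RVO and 25.2% lower and 27.2% higher in control eyes over all genes. Their summed level was 1143 to 1202 CPM in untreated, 1030 to 1113 in control and 454 to 785 in RVO pools. Markers of ganglion cells (11 of 11 lower in RVO, summed 322 to 689, 1041 to 1103 and 1283 to 1364 CPM in RVO, control and untreated pools), amacrine cells (8 of 9, 361 to 664, 893 to 957 and 1117 to 1234), bipolar cells (8 of 10, 572 to 955, 1272 to 1369 and 1614 to 1697) and horizontal cells (3 of 4, 6.72 to 39.1, 74 to 81.7 and 130 to 144) were lower beside them, with no marker at 0 in any whole group. Their part in the result was not tested.

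Of 6 listed channels known from immune cells, Kcna3, Kcnk13, Kcnk6 and Kcnj2 were tested. None of these 4 passed as higher in RVO or in control than in untreated eyes. Kcnn4 and Kcne3 were under the count rule and were not tested. The low counts of Kcnn4, given above, were higher in every RVO pool than in the untreated pools, which also had lower total counts. Kcna3 (Kv1.3), of lymphocytes and microglia, was at 0.446, 1.32 and 0.22 CPM in RVO, 1.85, 1.77 and 1.3 in control, and 1.27, 1.95 and 2.29 in untreated pools (-1.47 ± 0.55 in RVO, adjusted p = 0.041). Kcnk13 (THIK1) of microglia was at 0.733, 1.15 and 0.967 CPM in RVO and 0.636, 0.86 and 0.929 in untreated pools, and Kcnk6 (TWIK2) of macrophages at 0.733, 0.807 and 0.616 against 0.817, 0.547 and 1.29, neither past the threshold. In the same comparison 7 of 9 monocyte and macrophage markers and 5 of 5 neutrophil markers tested were higher (all genes 27.4%), while 5 of 7 microglia markers were lower (all genes 24.6%). The summed monocyte and macrophage markers were at 42.4 to 46.7 CPM in untreated, 122 to 155 in control and 236 to 292 in RVO pools. Lens markers were higher for 5 of 6 tested in RVO (all genes 27.4%) and 7 of 7 in control eyes (all genes 27.2%). Their sums were 3.07 to 27.8 CPM in untreated, 226 to 3204 in control and 192 to 6220 in RVO pools. Whether they came from lens tissue or from the retina was not tested, nor was their part in any value above.

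Other ion channel genes of the table are given for comparison. Of 12 voltage-gated sodium channel genes tested, 10 were lower in RVO than in untreated eyes (83.3%, median -1.33, all genes 24.6%) and 5 in control eyes (all genes 25.2%). Of 24 voltage-gated calcium channel genes, 17 were lower in RVO (70.8%, median -0.88) and 1 was higher, and 8 were lower and 6 higher in control eyes, beside 25.2% and 27.2% of all genes. HCN and cyclic nucleotide-gated channels had 5 of 9 lower in RVO eyes (median -0.56). Proteins that bind potassium channels without being one, such as Dpp6 and the sulfonylurea receptors, had 8 of 12 lower (median -1.33). The sodium-potassium pump and potassium cotransporters, which restore the gradients, had 4 higher and 5 lower of 17 in RVO eyes (median 0.07), beside 27.4% and 24.6% of all genes.

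Across the comparisons, 19 members were lower in both laser groups than in untreated eyes, which is 52.8% of the 36 lower in RVO and 95% of the 20 lower in control eyes. These were called against the same untreated pools, which favours an overlap. Overlaps over all genes were not counted, here or below, so the shares are not shown to be particular to the members. A further 17 passed as lower in RVO but not in control eyes, among them Kcnt1 with its rise in control eyes, and 7 passed as higher in control but not in RVO eyes, whereas 27 passed in none of the 3 comparisons. Of the 45 members lower in RVO than in control eyes at an adjusted p under 0.05, 17 were also lower and 6 were higher in control than in untreated eyes. Whether the fall in RVO eyes differs between members was not tested.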

How the data were processed

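The authors sequenced poly-A RNA of 9 retinal pools in single reads from a stranded kit, mapped the reads to the mouse genome (Gencode vM11, GRCm38) with STAR (2.5.2b) and counted them per gene with featureCounts (Subread 1.5.1). The strand setting and the treatment of multi-mapped reads are not given in the sources used here. The deposited values are raw counts per gene, and 92 spike-in rows were left out.

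Counts were tested in edgeR 4.0.16 (R 4.3.3) by the quasi-likelihood test with TMM scaling, filterByExpr and Benjamini-Hochberg adjustment over all genes tested, with 1 fit for each pair of groups and an adjusted p under 0.01 as the threshold. Levels (CPM) are counts scaled to a total of 1e+06 with TMM factors over the 9 pools. Log2 fold changes are given with SE. Alternatives were DESeq2 1.42.0 (size factors and Wald test), library size alone, other filters, 1 fit of all 9 pools, thinning to the smallest total, removal of GC and length trends, a replicate block and leaving out each pool. The fits were tested on simulated counts. Gene positions, exon lengths and overlaps came from GENCODE vM21 (GRCm38), with 46372 of 48679 names matched to 1 gene, and promoters from RefSeq. Pools are the replicates within each group, so the tests set differences against the spread between pools and not between single mice. RVO and control retinas came from the same mice, which the fits reported did not model. Which pools hold fellow eyes is not given in the sources used here.

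Genes were named as the highest of each family, the 10 largest rises and falls against untreated eyes, the calls between RVO and control eyes, opposite calls, members of cell type lists and genes next to the count rule. Members and lists were chosen with earlier results of these data known. Some members are counted but not reported by name here.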

Additional observations from a re-analysis of the deposited data

How the results depend on the processing

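With a threshold of 0.05, 45 instead of 2 members were lower in RVO than in control eyes. At the stricter threshold of the fit reported, the count of 2 became 0 with DESeq2 size factors and 5 with library size only. It was 41 without a filter on low counts, 42 in 1 fit of all 9 samples and 41 in the DESeq2 Wald test. It was 4 after thinning and 0 with GC content and length trends removed. How the 45 change in these alternatives is not given here. In the fit reported, 53 of 73 were lower at an unadjusted p under 0.05. With 1 pool left out, the count of lower members at the stricter threshold ranged from 0 to 50, and that of higher members from 0 to 1. The counts that follow use the stricter threshold too. The 1 higher member was 0 with DESeq2 size factors, after thinning and with GC content and length trends removed. Against untreated eyes, the higher members in RVO were 4 without a filter, and the lower ones 22 to 52 with 1 pool left out. In control eyes the higher members were 18 with library size only, 3 in 1 fit of all 9 samples and 3 with GC content and length trends removed, and the lower ones were 13 with library size only and 7 in 1 fit of all 9 samples. GC content and length trends, when removed, reversed the control difference of Kcnn1 (-0.029), Kcnc4 (-0.16), Kcnh2 (-0.28) and Kcnq1ot1 (0.26). The cause was not tested.

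Same-numbered pools of RVO and control eyes had correlations of -0.17, -0.17 and 0.10 in their deviations from the group means. Those of differently numbered pools ran from -0.25 to 0.26. With only 3 pools in a group, these values cannot exclude pairing. Which pools hold fellow eyes is not given, so the numbers were not taken as pairs. With the replicate block, no member (0 higher, 0 lower) separated RVO from control eyes at the threshold (50 lower at an unadjusted p under 0.05), and 39 were lower in RVO than in untreated eyes. Library size only shifted the overall median up by 0.21 for RVO against untreated eyes, where the higher share of calls went from 52.7% to 68.5%, and by 0.17 for control against untreated eyes, where it went from 51.9% to 70.4%. No called member changed sign with it.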
